A study of Mus musculus with 2 samples.

Results

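The Bcl2 family members described here are 9 genes of the 18786 in the table, chosen by name. They are 6 genes that keep cells alive (Bcl2a1b, Bcl2a1d, Bcl2a1a, Bcl2, Bcl2l1 and Mcl1) and 3 that promote death (Bcl2l11, Bax and Bak1), and all 9 had UMIs in both cell sets. Levels rest on UMIs, random tags by which each captured RNA molecule counts once. The cells were innate lymphoid cells (ILCs), which are lymphocytes that lack rearranged antigen receptors, sorted as CD45+, lineage-negative and Thy1.2+ from the skin of C57/BL6 mice on postnatal day 14 and on postnatal day 1, with 1 library of each day. No treatment or allele is given in the labels, and the number of animals pooled is not given in the sources used here.

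Cell names end in _2 or _1, and neither suffix matches a day's label, so the cells are described as cell set 2 and cell set 1 and not as ages. A limit of 10% mitochondrial UMIs per cell left 3508 of 3775 cells in set 2 (median 4849 UMIs per cell) and 1441 of 1471 cells in set 1 (median 10683 UMIs), and 4 barcodes occurred in both sets. The kept cells held 18026148 UMIs in set 2 and 16514632 in set 1. As neither set has a replicate, no test was run between them, and every interval is a 95% interval of counting error only. The sorted cells were checked on ILC markers: of 11 ILC2 markers, 8 in set 2 and 6 in set 1 reached 50 CPM (UMIs of a gene per 1000000 UMIs of the set), among them Gata3 at 593 and 577 CPM. Il1rl1 (20.1 and 19.3 CPM), Klrg1 (6.10 and 5.21 CPM) and Arg1 (11.8 and 19.9 CPM) stayed below it in both sets. Of 9 ILC3 markers, 1 reached it in each set, Ccr6 at 125 CPM in set 2 and Il22 at 166 CPM in set 1. Of 8 ILC1/NK markers, Nkg7 reached it, at 113 and 75.6 CPM. T cell markers, which the lineage-negative gate bears on, summed to 657 CPM in set 2, against 496 CPM in set 1, most of it Cd3g at 533 and 457 CPM, with Lck at 87.1 and 14.4 CPM and Cd3e at 5.94 and 7.39 CPM. Markers of γδ T cells summed to 240.0 and 93.6 CPM, with Trdv4 at 177 and 52.0 CPM and Trdc at 57.1 and 23.6 CPM. Lck, Trdv4 and Trdc, like the Bcl2a1 genes, were higher in set 2. The other γδ T cell markers were lower in set 2, with Tcrg-C1 at 4.99 and 14.3 CPM, Sox13 at 0.888 and 3.03 CPM and Tcrg-C2 at 0.388 and 0.666 CPM. Keratinocyte markers summed to 15.5 CPM in set 2, against 120 CPM in set 1, fibroblast markers to 3.72 and 69.2 CPM, and cycling markers to 290.1 and 1083 CPM. Their part in the differences between the sets was not tested beyond the values given with each result.

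Bcl2 family proteins decide whether the outer mitochondrial membrane stays closed. Bax and Bak1 form the pores that release cytochrome c, BH3-only proteins such as Bim, the product of Bcl2l11, set them off, and the pro-survival proteins bind and restrain both kinds. Lymphocytes depend on this balance, since cytokines such as IL-7 keep pro-survival members up, while withdrawal of cytokine lets Bim act. Mcl1 is a short-lived protein, and the A1 proteins encoded by the Bcl2a1 genes are induced by activation through NF-κB.

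The largest differences among the members lay in the Bcl2a1 genes. Bcl2a1b, which encodes an A1 protein that binds Bim, stood at 181 CPM in set 2 (175 to 187) and 31.0 CPM in set 1 (28.4 to 33.8), from 3259 and 512 UMIs. Its level was 5.83 times that of set 1 (5.31 to 6.41). Bcl2a1d, a near copy, stood at 126 CPM in set 2 (121 to 132) and 30.5 CPM in set 1 (27.9 to 33.2), 4.15 times higher in set 2 (3.76 to 4.58). Both genes were therefore higher in set 2 by far more than counting error, and their ratios lay above those of 99.3% and 98.6% of all genes with at least 100 UMIs. Bcl2a1a, the remaining copy among the members, had 16 UMIs in set 2 and 3 in set 1, a ratio of 4.89 (1.40 to 26.2) that rests on few molecules.

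The 3 Bcl2a1 genes among the members lie close together on chromosome 9 (GRCm38): Bcl2a1d at 88723285 to 88731914 on the minus strand, Bcl2a1a at 88956900 to 88962419 and Bcl2a1b at 89199209 to 89207827, both on the plus strand. They are so alike that the counting of their reads needs a look at the sequence. The first 100 coding bases are shown 5′ to 3′ because a 5′ kit reads this end of the RNA, with capitals at the 7 positions where the copies differ (GENCODE annotation of GRCm38).
Bcl2a1b: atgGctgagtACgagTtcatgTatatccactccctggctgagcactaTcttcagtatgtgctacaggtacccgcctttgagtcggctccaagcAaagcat
Bcl2a1d: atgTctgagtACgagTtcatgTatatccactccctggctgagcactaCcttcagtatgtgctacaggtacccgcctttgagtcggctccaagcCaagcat
Bcl2a1a: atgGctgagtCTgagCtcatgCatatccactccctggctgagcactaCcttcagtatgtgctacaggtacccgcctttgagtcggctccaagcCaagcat
Counted from the A of the start codon, Bcl2a1b and Bcl2a1d differed at 6 of 516 coding bases (Bcl2a1b base first: G4T, T48C, A94C, G312A, C381G and T490A), and Bcl2a1b and Bcl2a1a at 11. Windows were compared among these 3 copies only. A further gene, Bcl2a1c, is in the table with fewer than 20 UMIs over both sets and was not compared. Of the 50-base windows within the annotated transcripts, 42.4% were found in Bcl2a1b alone of the 3, 20.5% in Bcl2a1d alone and 32.3% in Bcl2a1a alone. Among the first 300 windows, nearest the end the kit reads, these shares were 58.7%, 37.3% and 33.0%, and with 90-base windows there 72.0%, 51.3% and 46.3%. A read of the remaining windows cannot be given to 1 copy, and the sources used here do not say how such reads were treated. The split between the copies is therefore uncertain, while their sum depends less on it. If shared reads were left out, the sum would be too low in both sets, which was not tested. Comparisons of the Bcl2a1 genes with other members, as in the pools and the balance, carry this limit. Summed, the Bcl2a1 genes stood at 308 CPM in set 2 (299.9 to 316) and 61.6 CPM in set 1 (57.9 to 65.5), 4.997 times as high in set 2 (4.67 to 5.35). Bcl2a1b also overlaps Gm29094 on the same strand, and Bcl2a1d overlaps the antisense gene Gm10634, which had 30 UMIs in set 2 and 5 in set 1.

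More cells carried the Bcl2a1 RNAs in set 2 at equal depth. Because cells of set 1 were deeper, each cell was thinned to 2000 UMIs, which dropped 249 set 2 cells and 15 set 1 cells. Bcl2a1b then had a UMI in 22.7% of cells in set 2 (21.3 to 24.2%) and 4.84% in set 1 (3.78 to 6.08%), and Bcl2a1d in 17.7% and 4.70%. At least 1 of the 3 copies was seen in 34.6% of thinned cells in set 2 and 8.13% in set 1. Without thinning the shares for Bcl2a1b were 35.4% and 15.5%, and the positive cells averaged 2.62 UMIs in set 2 and 2.30 in set 1. The variance of thinned Bcl2a1b counts was 1.86 times their mean in set 2 and 1.78 times in set 1, the widest of the members in both sets, whereas Bax and Bak1 lay between 0.988 and 1.16. Bcl2a1d was seen more often in cells with Bcl2a1b than in cells without it, though most cells with one copy showed no UMI of the other. It was in 25.6% of the Bcl2a1b-positive and 15.3% of the other cells of set 2 (190 of 741 positive cells), and in 29.0% and 3.46% of those of set 1 (20 of 69). The part that reads shared by the copies have in these pairs was not tested.

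**Figure D1:**
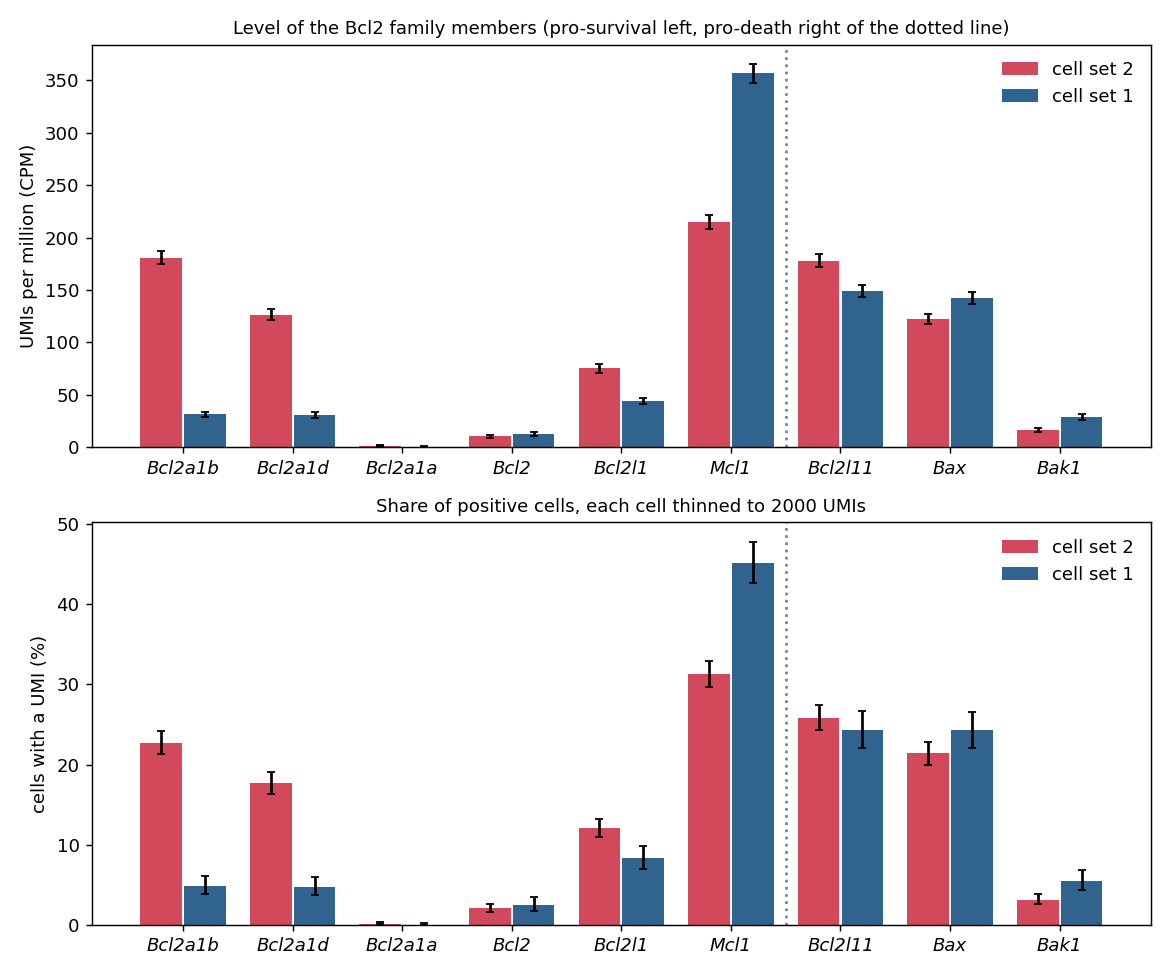
Bars give the level of each member in CPM (top) and the share of cells with a UMI after thinning (bottom), in cell set 2 (red) and cell set 1 (blue), with 95% counting intervals. Bcl2a1b and Bcl2a1d were higher in set 2 on both scales and Mcl1 was lower, at 215 CPM against 357 CPM.

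Mcl1 went the other way. This gene of a short-lived survival protein (chromosome 3, 95658788 to 95663176) was the most abundant member as counted in both sets, at 215 CPM in set 2 (208 to 222) and 357 CPM in set 1 (348 to 366). The level in set 2 was 0.603 times that in set 1 (0.579 to 0.628). After thinning, 31.3% of cells in set 2 (29.7 to 33.0%) and 45.2% in set 1 (42.6 to 47.9%) had a UMI, so fewer cells carried it in set 2 at equal depth. More than 1 Mcl1 UMI was seen in 7.89% of thinned cells in set 2 and 15.8% in set 1.

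Bcl2l1, which encodes Bcl-xL (chromosome 2, 152780668 to 152831728), stood at 74.9 CPM in set 2 (71.0 to 79.1) and 43.7 CPM in set 1 (40.6 to 47.0), a ratio of 1.71 (1.57 to 1.88). It was seen in 12.1% of thinned cells in set 2 and 8.27% in set 1. Bcl2 itself, the founding member of the family (chromosome 1, 106538178 to 106714274), was low in both sets, with 10.1 CPM in set 2 (8.68 to 11.7) and 12.1 CPM in set 1 (10.5 to 13.9). The interval of its ratio, 0.834 (0.678 to 1.02), includes no difference, and thinned shares of 2.06% and 2.45% had intervals that overlapped.

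Among the pro-death members, differences were smaller and ran both ways. Bcl2l11, the gene of the BH3-only protein Bim (chromosome 2, 128126038 to 128162547), stood at 178 CPM in set 2 (172 to 184) and 149 CPM in set 1 (143 to 155), a ratio of 1.196 (1.13 to 1.26). Thinned shares of 25.9% and 24.3% had overlapping intervals, while cells with several Bcl2l11 UMIs were more frequent in set 2 (7.43% with more than 1 UMI, against 4.91%). Bax, a pore-forming effector (chromosome 7, 45461697 to 45466898), was at 122 CPM in set 2, against 142 CPM in set 1, 0.859 times as high (0.810 to 0.911). Bak1, the other effector (chromosome 17, 27019810 to 27029009), was at 16.3 CPM in set 2, against 28.3 CPM in set 1, 0.577 times as high (0.497 to 0.669), with 3.13% and 5.47% of thinned cells positive.

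Read against all genes, the Bcl2a1 genes were the members past 2-fold. Of the 8 members with at least 100 UMIs, 2 were at least 2-fold higher in set 2 (6.23% of 9495 genes were) and 0 at least 2-fold lower (8.91% of genes were). At 1.5-fold, Bcl2l1 joined those higher (12.7% of genes) and Mcl1 and Bak1 were lower (22.8% of genes). As the members were chosen with earlier results of these cells known, these counts are a description. The ratios of Bax and Bcl2 lay near the middle of all genes, above 45.4% and 42.1% of them, and that of Bcl2l11 lay above 75.9%. Those of Mcl1 and Bak1 lay above 16.2% and 13.8% of genes, and that of Bcl2l1 above 90.8%. The median gene itself had a log2 ratio of -0.15, and TMM scaling, which moves it to about 0, brings Bax to -0.07, Bcl2 to -0.11 and Bcl2l11 to 0.41. Mcl1 moves from -0.73 to -0.58, Bak1 from -0.79 to -0.64 and Bcl2l1 from 0.78 to 0.93.

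**Figure D2:**
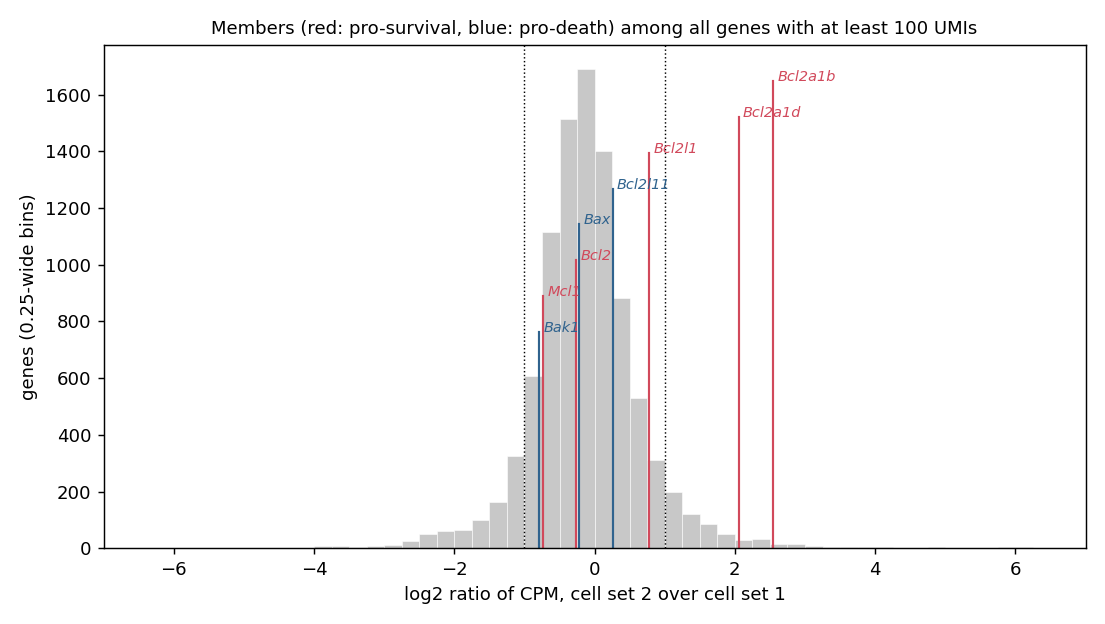
Grey bars count all genes with at least 100 UMIs by their log2 ratio of CPM, cell set 2 over cell set 1. Lines mark the 8 members that reach this minimum (red pro-survival, blue pro-death), and dotted lines mark 2-fold. Bcl2a1d at 2.05 and Bcl2a1b at 2.54 lie in the upper tail, and the other 6 members lie within 2-fold.

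Summed by role, the pro-survival pool differed in make-up far more than in size. Pro-survival members together stood at 608 CPM in set 2 (597 to 620) and 474 CPM in set 1 (464 to 485), a ratio of 1.28 (1.25 to 1.32). Mcl1 supplied 35.4% of this pool in set 2 and 75.2% in set 1, whereas Bcl2a1b and Bcl2a1d supplied 29.7% and 20.8% in set 2 and 6.54% and 6.42% in set 1. Bcl2l1 made up 12.3% and 9.22%, and Bcl2 1.66% and 2.55%. The pro-death pool was close in size, at 316 CPM in set 2 (308 to 324) and 319 CPM in set 1 (310 to 328), with a ratio of 0.991 (0.954 to 1.03). Within it Bcl2l11 took 56.2% in set 2 and 46.6% in set 1, Bax 38.6% and 44.5%, and Bak1 5.16% and 8.86%.

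**Figure D3:**
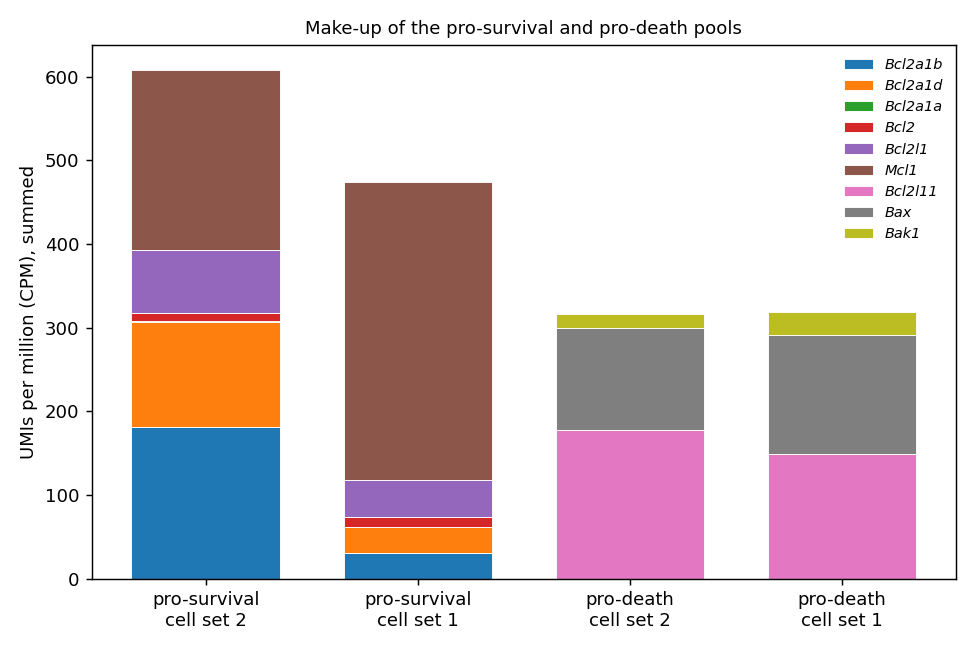
Stacked bars give the summed level, in CPM, of the pro-survival members (left pair) and the pro-death members (right pair) in cell set 2 and cell set 1. Mcl1 makes up most of the pro-survival bar of set 1, the Bcl2a1 genes and Mcl1 together most of that of set 2, and the pro-death bars are nearly as tall as each other (316 and 319 CPM).

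The balance, pro-survival over pro-death UMIs, was 1.92 in set 2 (1.86 to 1.99) and 1.49 in set 1 (1.44 to 1.54). It was thus 1.29 times higher in set 2, a log2 difference of 0.37 (0.30 to 0.44). Leaving out single genes moved the balance of both sets. Without Mcl1 it was 1.24 in set 2 and 0.368 in set 1, so that pro-death UMIs outnumbered pro-survival ones in set 1. Without the Bcl2a1 genes it was 0.949 in set 2 and 1.29 in set 1, which turns the direction of the difference. The sums give RNA molecules, not protein, and weigh the abundant genes most. Reads shared by the Bcl2a1 copies, whose treatment is not given, bear on them too.

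Cell by cell the picture was similar. In thinned cells pro-survival UMIs outnumbered pro-death ones in 45.2% of set 2 cells (43.5 to 47.0%), against 37.4% of set 1 cells (34.9 to 40.0%). The reverse held in 22.6% of set 2 cells (21.2 to 24.1%), against 25.2% of set 1 cells (22.9 to 27.5%), with intervals that overlapped. Thinned to 4000 UMIs these shares were 23.1% (21.4 to 24.8%) in set 2, against 29.8% (27.4 to 32.3%) in set 1, and the intervals did not overlap. No UMI of any member was seen in 21.0% and 25.5% of cells, at 2000 UMIs per cell. A pro-death UMI was seen in 44.0% of cells of set 2 (42.3 to 45.8%) and 46.1% of set 1 (43.5 to 48.8%). With Mcl1 left out, cells with more pro-survival UMIs made up 29.98% of set 2 and 10.8% of set 1. With the Bcl2a1 genes left out the direction turned, to 28.0% of set 2 (26.4 to 29.6%), against 33.7% of set 1 (31.3 to 36.3%).

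Over all thinned cells of set 2, Bcl2l11 was seen more often in cells with Bcl2a1 RNA than in cells without it, and Mcl1 less often, while within clusters 5 and 4 the intervals overlapped (a comparison added after seeing the data). Among set 2 cells with a Bcl2a1 UMI, 29.7% had a Bcl2l11 UMI (27.1 to 32.5%), against 23.8% of those without one (22.0 to 25.7%). Mcl1 was seen in 28.0% of the Bcl2a1-positive (25.4 to 30.8%) and 33.1% of the Bcl2a1-negative cells of set 2 (31.1 to 35.1%). For Bcl2l11 and Mcl1 the shares in set 2 were 27.3% of Bcl2l11-positive (24.3 to 30.4%) and 32.7% of Bcl2l11-negative cells (30.9 to 34.7%) with Mcl1. Set 1 had only 116 Bcl2a1-positive thinned cells, and there the shares with Bcl2l11 were 25.9% and 24.2% and with Mcl1 48.3% and 44.96%, with overlapping intervals. Within cluster 5 of set 2 (a cluster led by Hopx), Bcl2l11 was seen in 35.2% of the Bcl2a1-positive (31.9 to 38.5%) and 34.6% of the Bcl2a1-negative cells (31.7 to 37.6%), and Mcl1 in 25.2% and 25.4%. Within cluster 4 of set 2 (led by Hspa1b), the shares were 15.9% and 15.5% for Bcl2l11 and 35.8% (29.6 to 42.5%) and 42.6% (39.1 to 46.1%) for Mcl1, again with overlapping intervals. Mcl1 in Bcl2l11-positive and Bcl2l11-negative cells stood at 24.2% (20.9 to 27.7%) and 25.9% (23.5 to 28.5%) within cluster 5 of set 2. Within cluster 4 of set 2 it stood at 37.2% (29.6 to 45.3%) and 41.8% (38.4 to 45.2%), and the intervals overlapped in both clusters.

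The members were also read across clusters, which serve here as a description only, since all genes of these cells shape them. Of the members, Bcl2a1b, Bcl2 and Bcl2l11 were among the 2000 clustered genes, and clusters made without the 9 members gave close values (Bcl2a1b at 244 CPM in the counterpart of cluster 5). Clusters 5 and 4 were almost wholly of set 2 and were led by Hopx and Ccr7 and by Hspa1b and Fosb. Clusters 0 and 1 were almost wholly of set 1 and were led by Slc38a4, Calca and Hes1 and by Il22 and Tyrobp. Cluster 3 held cycling cells, with 8 of 8 cycling markers raised, and cluster 2 was led by genes of keratin-associated proteins (Krtap genes) and had Cd3g and Lck raised. Cluster 6, with 85 cells of set 2 and a median of 1148 UMIs, was led by Nabp1.

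Bcl2a1b was highest in cluster 5, at 246 CPM (236 to 256), and stood at 85.7 CPM in cluster 4. In set 1 it was highest in the Il22-led cluster 1, at 114 CPM (96.4 to 135), against 27.5 CPM in cluster 0. Both sets had enough cells in clusters 3 and 2 for a comparison within a cluster. In cycling cluster 3, the Bcl2a1 genes summed to 267 CPM in set 2, against 43.1 CPM in set 1, a ratio of 6.19 (5.22 to 7.36). In cluster 2 they summed to 73.7 CPM in set 2, against 4.98 CPM in set 1, from 79 and 7 UMIs, a ratio of 14.8 (6.86 to 38.03). The 193 cells of set 1 in cluster 2 held a single Bcl2a1b UMI at a median of 7085 UMIs per cell, so 0.518% were positive (0.0131 to 2.85%), against 15.1% of cluster 0 of set 1 at a median of 10692 UMIs. No cell type known to lack the Bcl2a1 genes was named among the kept cells, so this cluster is the lowest level at hand. In cluster 2 of set 2, 10.4% of cells were positive at a median of 3826.5 UMIs.

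Mcl1 was lowest where Bcl2a1b was highest, with 166 CPM in cluster 5 (158 to 174), and highest in cluster 0 of set 1, with 390.0 CPM (377 to 404). The Hspa1b-led cluster 4 of set 2 stood at 311 CPM, near the 304 CPM of cluster 1 of set 1. In cluster 3 Mcl1 was at 227 CPM in set 2, against 341 CPM in set 1, 0.664 times as high (0.582 to 0.754), and in cluster 2 at 200 CPM and 265 CPM, 0.755 times as high (0.635 to 0.895). Mcl1 was thus lower in set 2 within both clusters that the sets share.

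Bcl2 was highest in cluster 1, and Bcl2l11 was lowest in cluster 2 in both sets. Bcl2 was at 44.0 CPM in cluster 1 of set 1 (33.1 to 57.3), while within cluster 2 it was at 29.9 CPM in set 2, against 29.2 CPM in set 1. In clusters 0, 3, 4 and 5 Bcl2 lay between 3.37 and 9.41 CPM. Within cluster 2 Bcl2l11 was at 28.0 CPM in set 2, against 42.0 CPM in set 1. It reached 232 CPM in cluster 5, and cluster 0 stood at 187 CPM. Within cluster 3 Bcl2l11 was at 136 CPM in set 2, against 132 CPM in set 1, a ratio of 1.03 (0.866 to 1.23). The highest Bcl2l11 level was that of cluster 6, at 429 CPM (313 to 573), from 45 UMIs in cells of few UMIs with a median of 8.06% mitochondrial UMIs.

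With cluster 6 included, the balance varied between clusters about as much as the summed pools did, and less than Bcl2l11 or the Bcl2a1 genes. In clusters of set 2 it was 1.91 in cluster 5, 2.04 in cluster 4, 2.01 in cluster 3 and 1.45 in cluster 2, and in clusters of set 1 it was 1.47 in cluster 0, 1.82 in cluster 1, 1.43 in cluster 3 and 1.37 in cluster 2. It spanned 2.04-fold over the 9 combinations of cluster and set with at least 50 cells, against 2.05-fold for the pro-survival pool, 1.97-fold for the pro-death pool, 2.35-fold for Mcl1 and 3.20-fold for Bcl2l1. Bcl2l11 spanned 15.3-fold, and the Bcl2a1 genes together lay between 4.98 CPM (7 UMIs) and 415 CPM. The balance of cluster 6 was 1.00 (0.653 to 1.53), from 94 UMIs. This sparse cluster set the low end of the balance and the high ends of the pro-death pool (448 CPM) and Bcl2l11 (429 CPM). Without it the balance lay between 1.37 and 2.04, the pro-death pool between 228 and 354 CPM and Bcl2l11 between 28.0 and 232 CPM. The span of the pro-survival pool did not rest on cluster 6. The intervals of the balance in cluster 2 overlapped between the sets, and those in cluster 3 did not.

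**Figure D4:**
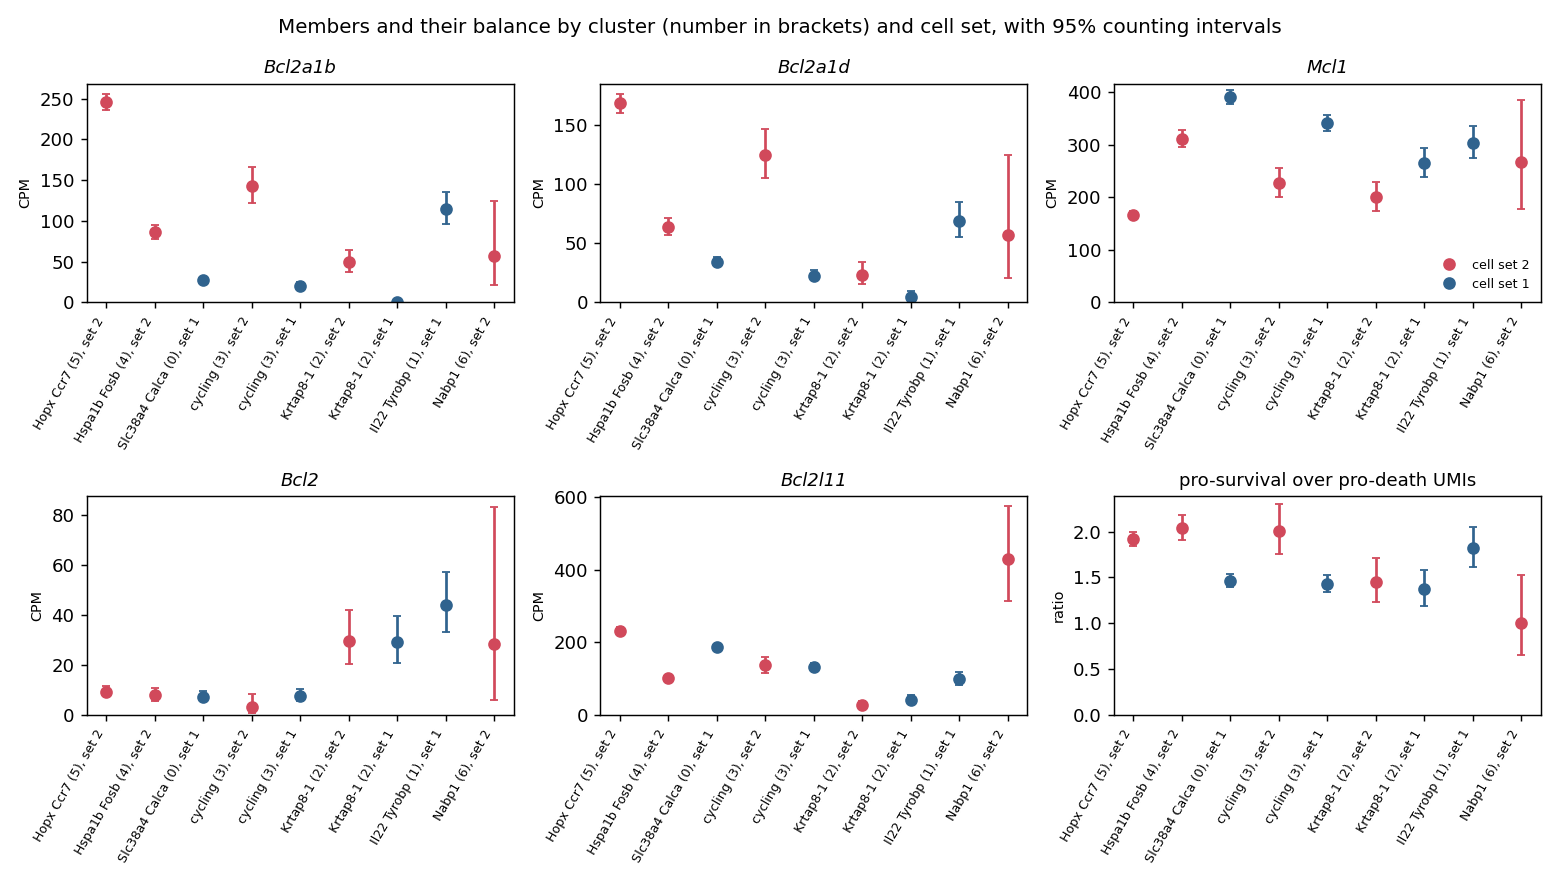
Points give the level in CPM of 5 members and, at the lower right, the ratio of pro-survival to pro-death UMIs, for each cluster with at least 50 cells of a set (red set 2, blue set 1), with 95% counting intervals. Bcl2a1b is highest in cluster 5 (246 CPM), where Mcl1 is lowest (166 CPM), and Bcl2 is highest in cluster 1 (44.0 CPM).

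Each set held cells with Xist, an RNA of female cells, and cells with RNA of Y-linked genes. Xist-only cells (1428 in set 2, 524 in set 1) had Xist UMIs and none of 4 Y-linked genes, and Y-only cells (1186 and 666) the reverse. In Xist-only cells Bcl2a1b stood at 187 CPM in set 2, against 34.6 CPM in set 1, and in Y-only cells at 182 and 32.2 CPM, log2 ratios of 2.44 and 2.50 between the sets. Mcl1 was likewise lower in set 2 in both, at 213 and 345 CPM in Xist-only and 217 and 365 CPM in Y-only cells. Bcl2a1d was higher in Xist-only than in Y-only cells, 1.21 times in set 2 (1.10 to 1.33) and 1.39 times in set 1 (1.15 to 1.69). Bcl2l11 was at 166 CPM in Xist-only and 201 CPM in Y-only cells of set 2, a ratio of 0.826 (0.764 to 0.894), and in set 1 its ratio was 0.977 (0.894 to 1.07). Bcl2 was 1.54 times as high in Xist-only as in Y-only cells of set 1 (1.12 to 2.12), against a ratio of 1.02 in set 2 (0.737 to 1.42), and between the sets its log2 ratio was -0.39 in Xist-only and 0.20 in Y-only cells. How many animals stand behind these cells is not given, so no error between animals can be set beside them.

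Markers of neutrophils and macrophages, which are known to express the Bcl2a1 genes, were low. The 5 measured neutrophil markers summed to 2.66 CPM in set 2, against 0.908 CPM in set 1, with S100a9, Csf3r and Retnlg at 0 in set 2, and the 7 macrophage and monocyte markers to 3.16 and 4.30 CPM, with C1qa, C1qb, Adgre1 and Itgam at 0 in set 2. Cells with any such UMI made up 2.68% of set 2 and 5.20% of set 1 and held 3.60% and 5.21% of the Bcl2a1 UMIs. Mast cell markers summed to 160 CPM in set 2, against 191 CPM in set 1, of which Kit alone gave 159.5 and 114 CPM. The granule genes Cma1, Cpa3 and Mcpt4 were at 0, 0.166 and 0.277 CPM in set 2, against 41.3, 15.9 and 12.9 CPM in set 1, and Tpsb2 and Mrgprb1 were also at 0 in set 2. Dendritic cell markers summed to 29.96 CPM in set 2 (Flt3, Itgax and Cd207 at 0), against 9.33 CPM in set 1, with Zbtb46 at 28.0 and 8.54 CPM of these. The part of these cell types was not tested. The log2 ratios of Bcl2a1b were 2.20 to 2.70 over all alternatives, the smallest without cells that had at least 3 UMIs of cycling markers, which left 3297 cells of set 2 and 901 of set 1.

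The cells above 10% mitochondrial UMIs, 267 in set 2 and 30 in set 1, were shallow, with medians of 898 and 2270 UMIs. Levels in them were taken as CPM of nuclear-gene UMIs, the mitochondrial ones left out. In set 2, Bcl2l11 was at 282 CPM in these cells and 183 CPM in the kept cells, 1.54 times higher (1.1996 to 1.95), while Bcl2a1b was at 47.6 and 186 CPM, 0.256 times as high (0.132 to 0.448), and Bax at 59.5 and 125 CPM, 0.474 times as high (0.265 to 0.784). Bcl2 was 3.44 times higher (1.55 to 6.67), from 9 UMIs, and Mcl1 differed little (1.04, 0.788 to 1.35). The balance in them was 1.36 (1.02 to 1.81), against 1.92 in the kept cells of set 2. In set 1 the 30 cells held 55 UMIs of the members, and the intervals of all 9 ratios included 1.

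Other genes of the death pathway were read from lists. Of the 8 other BH3-only genes with at least 20 UMIs, 1 was higher and 7 were lower in set 2, at a median log2 ratio of -0.71 (all genes -0.15). Past 2-fold, 1 was higher (8.88% of 12026 genes with at least 20 UMIs were) and 2 were lower (12.2% of genes). Bbc3, the gene of PUMA, which p53 induces, stood at 11.2 CPM in set 2, against 46.4 CPM in set 1, 0.240 times as high (0.205 to 0.281). Bnip3, a hypoxia-induced mitophagy receptor, was at 11.2 and 28.9 CPM, while Bmf had 43 and 13 UMIs, 3.03 times higher in set 2 (1.60 to 6.14). Of the 5 other multidomain members measured, Bcl2l13 was lower in set 2, at 10.7 and 24.0 CPM, and Bcl2l2, the gene of Bcl-w, was at 2.66 and 1.45 CPM. Bok and Bcl2l15 were past 2-fold higher in set 2, with 20 and 22 UMIs there, against 6 and 10 in set 1 (both named after their values were seen), and the list's median turned from 0.87 to -0.71 with a minimum of 100 UMIs, where 2 genes were left.

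The p53 axis was lower in set 2 in 7 of 8 genes, at a median of -0.65, with Cdkn1a and Phlda3 past 2-fold. The exception, Gadd45b, was the most abundant of them, at 1678 CPM in set 2, against 1192 CPM in set 1, and the list's sum was 2068 and 1996 CPM (Gadd45b was named after its values were seen). Cdkn1a, the cell cycle inhibitor p21, stood at 222 CPM in set 2, against 541 CPM in set 1, Phlda3 at 2.27 and 10.5 CPM, and Gadd45a at 26.1 and 51.3 CPM. Caspases and apoptosome genes had 3 higher and 9 lower in set 2 (median -0.37) and none past 2-fold. Of all 12026 genes, 7117 were lower and 4909 higher in set 2. The 6 genes of the mitochondrial channel list had ratios under 1 (median -0.30), with Vdac1 at 93.1 and 143 CPM, while the interval of Opa1, 0.919 (0.775 to 1.09), included no difference.

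Caspase inhibitors, NF-κB factors and cytokine receptors were mostly higher in set 2. The 5 caspase inhibitors had ratios over 1 (median 0.41), though Birc6 was at 1.07 (1.005 to 1.13) and the interval of Cflar, 1.08 (0.966 to 1.199), included no difference. Birc3, Birc2 and Xiap were higher in set 2, with Birc3, the NF-κB target cIAP2, at 126 CPM in set 2, against 62.7 CPM in set 1. Of 7 NF-κB factors and regulators 6 were higher (median 0.40), among them Rel at 891 and 414 CPM and Nfkb1 at 606 and 365 CPM. The exception, Rela, was lower in set 2, at 54.9 and 79.5 CPM, 0.690 times as high (0.635 to 0.750, named after its values were seen). Among 14 genes of survival cytokine signalling 10 were higher (median 0.28). Il7r, the receptor of the cytokine that sustains ILCs, was at 851 CPM in set 2, against 531 CPM in set 1, Il2rg at 467 and 296 CPM and Stat5a at 53.7 and 19.3 CPM. Death receptors and adaptors were split 4 and 4, with Fas at 87.7 and 43.1 CPM and the necroptosis kinase Ripk3 at 17.8 and 34.7 CPM. The genes of Mcl1 turnover had 2 higher and 3 lower, with Fbxw7, a ubiquitin ligase subunit that targets Mcl1 protein, at 22.4 and 36.0 CPM. With TMM scaling the counts of higher and lower genes became 2 and 6 for the BH3-only, 4 and 8 for the caspase, 5 and 3 for the death receptor, 11 and 3 for the cytokine, 2 and 6 for the p53, 3 and 2 for the Mcl1 turnover and 1 and 5 for the channel list, and the Mcl1 turnover median turned to 0.06. Over all lists, 7 of 78 genes were at least 2-fold higher and 5 at least 2-fold lower in set 2, shares of 8.97% and 6.41% against 8.88% and 12.2% of all genes.

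The genes most like Bcl2a1b from cell to cell were weakly related to it. Across thinned cells of each set (3259 and 1426), the 5 genes of 3493 ranked highest by the smaller of their correlations in both sets were Fth1, Srgn, Nr4a3, Rel and Rab8b, with Pearson's r of 0.13 to 0.17 in set 2 and 0.12 to 0.18 in set 1. Rel, an NF-κB subunit, had r = 0.15 in set 2 and 0.12 in set 1. For Bcl2l11 the leading gene was Rora, an ILC2 transcription factor gene, with r = 0.14 and 0.18, followed by Sub1, Srgn, H3f3b and Paxbp1. For Bcl2 no gene passed 0.07 in both sets (Vps13a, Smarca2, H2-Q6, Was and Mbnl1 led). In counts this sparse such values describe the cells and are no finding.

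Because Bcl2a1b and Bcl2a1d were higher together, the 250 bases before their annotated starts were compared (RefSeq, GRCm38.p6). The GENCODE start of each gene, given with its coordinates above, lies inside this window. Distances to the start therefore depend on the annotation used. The windows are shown 5′ to 3′ on the gene's strand, with capitals at the match of the pattern TGANTCA, where N is any base. In each window the match read TGAATCA. The windows are chr9:89199023-89199272 (Bcl2a1b, plus strand), chr9:88731851-88732100 (Bcl2a1d, minus strand) and chr9:88956670-88956919 (Bcl2a1a, plus strand).
Bcl2a1b: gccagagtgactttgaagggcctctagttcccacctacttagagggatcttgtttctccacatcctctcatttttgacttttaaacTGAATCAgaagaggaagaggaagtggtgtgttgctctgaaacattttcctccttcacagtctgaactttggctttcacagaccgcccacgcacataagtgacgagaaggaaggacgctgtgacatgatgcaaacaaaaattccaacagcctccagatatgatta
Bcl2a1d: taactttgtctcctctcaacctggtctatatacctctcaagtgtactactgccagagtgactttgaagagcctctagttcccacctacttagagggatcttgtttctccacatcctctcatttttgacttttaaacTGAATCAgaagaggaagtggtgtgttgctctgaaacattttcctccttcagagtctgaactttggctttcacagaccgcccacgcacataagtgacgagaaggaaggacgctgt
Bcl2a1a: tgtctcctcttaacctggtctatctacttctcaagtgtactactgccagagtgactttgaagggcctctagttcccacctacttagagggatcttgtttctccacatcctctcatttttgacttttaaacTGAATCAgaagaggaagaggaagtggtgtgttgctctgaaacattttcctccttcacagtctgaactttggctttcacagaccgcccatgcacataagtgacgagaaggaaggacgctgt
Each window held 1 match of TGANTCA, searched on both strands, beginning 164, 114 and 120 bases before the RefSeq start of Bcl2a1b, Bcl2a1d and Bcl2a1a. Of 32851 promoter windows of this length, 6.75% held a match. The windows of Bcl2a1b and Bcl2a1d aligned with an offset, with 198 identical bases, 2 mismatches and a gap of 6 bases inside the aligned stretch, besides 94 unpaired bases at the ends. No window of the Bcl2a1 genes held the NF-κB consensus, which 3.90% of all windows held, nor CCAAT, which 33.8% held. Bcl2l1 held the NF-κB consensus in 1 of its 3 windows, as GGGGGTCTCC beginning 242 bases before the start. Bcl2l11 held CCAAT in both of its 2 windows in the table. These matches are letters in a window and say nothing of a factor.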

How the data were processed

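Skin ILCs of 2 labelled days were captured with the 10x Genomics 5′ kit, per the labels' protocols. The authors deposited 1 table of UMI counts per gene and cell. The submitters' processing notes name the mm10 build, Seurat 4.1.0 and Cell Ranger 3.1.0, without settings. The table was treated as 1 pooled sample with cells divided by name suffix. UMIs of a gene were summed over the kept cells of a set and given as CPM with exact Poisson intervals. Intervals of ratios and of the balance are exact binomial, and those of shares are Clopper-Pearson. A UMI is counted once per molecule, so levels were not divided by gene length. Thinning drew UMIs without replacement. Ratios and their intervals were tested on simulated data, and thinning on a part of the kept cells. The simulated counts held counting error only, which the intervals assume, so the effect of spread between cells was not tested. Clusters came from scanpy 1.11.5 (10000 UMIs per cell, log scale, 2000 variable genes, 30 principal components, 15 neighbours, Leiden resolution 0.5, 7 clusters of 4942 cells). Scrublet called 7 doublets in set 1 and 0 in set 2 (0.141% of cells), too few for the calling to have worked, and these 7 were left out of clusters only. A marker counted as raised at 20 CPM, 2-fold over the other cells and with UMIs in at least 10% of the cluster. TMM factors came from edgeR 4.0.16. Coordinates and coding sequences are from GENCODE's annotation of GRCm38, promoters from RefSeq. Named pathway genes are up to 3 per list with the largest ratio and at least 50 UMIs. Genes most like a member had the highest smaller Pearson's r of log-scale thinned counts, among those seen in at least 5% of thinned cells of each set, without ribosomal protein, mitochondrial and haemoglobin genes. One named pathway gene is not reported here. Members and lists were chosen with earlier results of these data known. Alternatives and their effects are given at the end.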

Additional observations from a re-analysis of the deposited data

How the results depend on the processing

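The 2 members at least 2-fold higher in set 2, Bcl2a1b and Bcl2a1d, were past that fold in each of the 7 planned and 4 added cell subsets, with TMM scaling, in thinned cells, with means over cells and with lower minimums of UMIs. At a minimum of 100 UMIs, 5.20 to 8.30% of all genes were past it under these alternatives. At 1.5-fold, 3 members were higher and 2 lower in set 2. The direction of every member's ratio stayed the same under all alternatives run, except that of Bcl2, which ranged from -0.57 to 0.20 (log2). The 4 added subsets, chosen after seeing the data, left out the cycling cluster, called doublets, clusters 2 and 6, or cells with haemoglobin UMIs. In set 2 the balance of 1.92 moved to 2.04 in Xist-only and 1.83 in Y-only cells, 1.84 in thinned cells, 1.85 with means over cells, 1.24 without Mcl1, 0.949 without the Bcl2a1 genes and 3.13 without Bax. In set 1 the balance of 1.49 moved to 0.368 without Mcl1, 1.29 without the Bcl2a1 genes and 2.68 without Bax. Its log2 difference between the sets, 0.37, was 0.25 in Y-only cells, 1.76 without Mcl1, 0.23 without Bax and -0.45 without the Bcl2a1 genes, by construction of the sums. Pathway genes at least 2-fold higher in set 2 numbered 7, and 4 with a minimum of 100 UMIs. No paired analysis was possible because the labels give no replicate numbers and no test was run. Depth limits Bcl2a1a, with 19 UMIs in all, and the cells above the mitochondrial limit in set 1.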
